A study of Mus musculus with 6 samples.

Results

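The regions described here are the broad acetylated stretches of chromatin that ES48, a mouse Ewing sarcoma line, has in common with a second such line, ES49. They are the H3K27ac peaks of ES48 on chromosomes 1 to 19 that are 5000 bp wide or wider and share at least 1 bp with an H3K27ac peak of ES49. There were 1048 of them among the 25970 ES48 peaks, of which 25313 lie on these chromosomes and 1090 of those reach the width. ES49 thus met 96.1% of the 1090 (95% Clopper-Pearson interval 94.8 to 97.2) and left 42 without a peak. Of ES48 peaks of any width on the same chromosomes, 66.6% were met, a share that the choice of regions used and that is given as background alone. The regions were chosen by width and overlap in the H3K27ac lists of both lines, so every value of H3K27ac cover below is a description.

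Both lines carry EWS-FLI1, the fusion protein that drives Ewing sarcoma in humans, and were labelled as Balb/c mouse sarcoma cells induced by it. Neither was given a treatment. ChIP-seq with 1 library per line and antibody gave the lists used: H3K27ac and EWS-FLI1 (with a FLAG antibody) in both lines, and in ES49 also H3K27me3. The samples include no H3K27me3 and no input of ES48, and the ES49 input was not analysed here. Each line is a single line, the number of animals behind it is not given in the sources used here, and with 1 library there is no replicate spread and no test. Intervals cover counting error within a list only, and are too narrow even for that because peaks beside each other are not independent.

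H3K27ac is an acetyl group on lysine 27 of histone H3, found at active promoters and enhancers. Where active elements crowd together, the mark can run unbroken over several kilobases, as at enhancer clusters and at highly transcribed genes that set a cell's identity. H3K27me3 is put on the same lysine by Polycomb repressive complexes at silenced genes, and a lysine cannot carry both groups. EWS-FLI1 joins part of EWS to the ETS DNA-binding domain of FLI1 and binds ETS motifs and GGAA repeats, where it is known to act as an activator or a repressor.

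The lists themselves differed in grain. The median H3K27ac peak was 1475 bp wide in ES48 and 838 bp in ES49, and 1096 ES48 peaks against 340 ES49 peaks were 5000 bp or wider. The score that the peak caller gave each peak has no stated scale, and it levels off near 3100. That level was reached by 19.6% of the ES48 list and 6.01% of the ES49 list. Read depth is unknown for both lines. The part that this difference between the lists has in the pieces and gaps described below was not tested.

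The broad shared peaks had a median width of 6488 bp, with quartiles at 5574 and 8145 bp and a maximum of 28731 bp, and together spanned 7789 kb. Their ES48 scores stood at 3100 or more in 1022 of 1048, and the lowest was 861. The 3 narrowest were 5000, 5001 and 5002 bp wide (mm9 chr3:86974863-86979862, chr9:44847548-44852548 and chr1:172627098-172632099) and were covered by ES49 over 98.2%, 70.5% and 100%. The 3 shared peaks just under the limit were each 4997 bp wide (chr3:127334305-127339301, chr7:20353072-20358068 and chr8:122192309-122197305), with 67.9%, 82.6% and 58.3% covered. The limit therefore cuts through a continuous range of widths. All coordinates are mm9, and no gene was assigned to a region, because no mm9 annotation was used here. For the same reason the cell type could not be checked against marker genes.

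ES49 acetylation covered a median of 74.6% of a broad ES48 peak (quartiles 50.3 and 88.3%), but seldom all of it and seldom as 1 peak. Full cover was found in 26 regions, 2.48%, against 10.3% of the 16847 shared ES48 peaks of any width. Cover of 90% or more was found in 233 regions, 22.2%, against 26% of all shared peaks. A further 558 regions were covered over 50 to 90% of their width. The remaining 257, or 24.5%, were covered over less than 50%, against 17.3% of all shared peaks, and 18 of these (1.72%) were covered over less than 10%, against 0.76%. The median cover of shared ES48 peaks of 3000 to under 5000 bp, the width class next to the broad ones (2661 peaks), was 74.1%, and that of all shared peaks 77.1%.

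**Figure D1:**
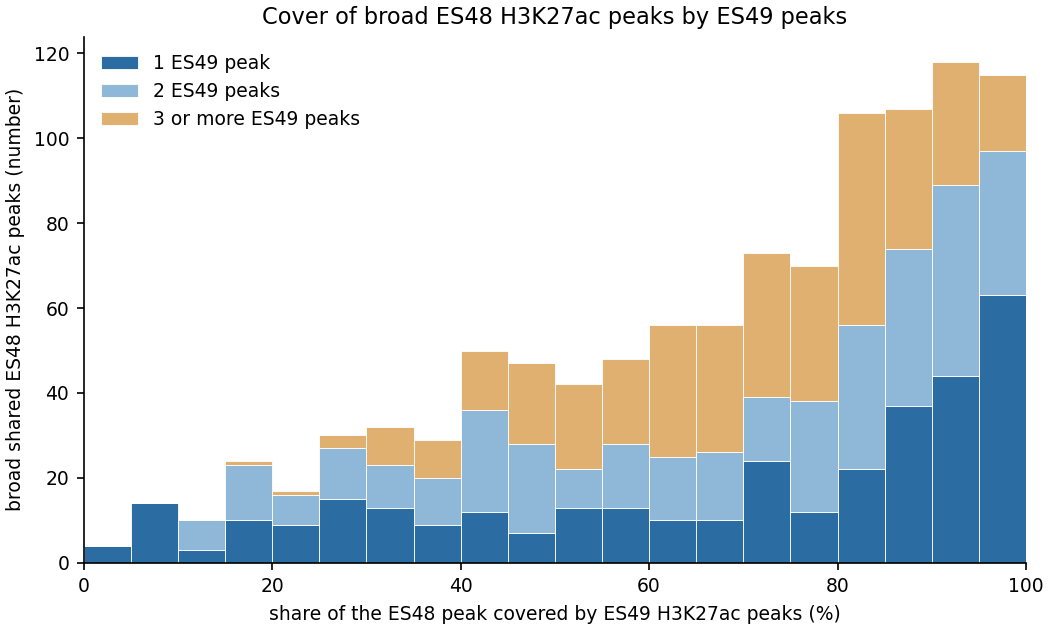
Number of broad shared ES48 H3K27ac peaks (vertical axis) by the share of their width that ES49 H3K27ac peaks cover (horizontal axis, in steps of 5%), with bars divided by how many ES49 peaks meet the region. Numbers climb towards high cover, 233 regions stand at 90% or more, and those met by 1 ES49 peak are found at both ends of the range.

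As deposited, the ES49 list split most of the regions. Of the 1048 regions, 704 (67.2%, interval 64.2 to 70.01) were met by 2 or more ES49 peaks, against 17% of all shared peaks and 31.0% of those of 3000 to under 5000 bp. With the upper 50% of the ES49 list by score alone, 396 of 998 regions (39.7%) were split. The 17% and 31.0% were taken with the full ES49 list and are no background for this share. There were 344 regions with 1 ES49 peak, 351 with 2, 203 with 3, 84 with 4 and 36 with 5. The other 30 regions held 6 or more, and at most 10. An ES49 peak that entered a region by only a few bp at its end was counted too, and the number of splits that rest on such contact is not given here. The share of split regions was higher in each wider class, each class running up to the start of the next: 42.8% from 4000 bp, just under the limit, then 58.4% from 5000 bp, 63.8% from 6000 bp, 71.5% from 7000 bp, 79.3% from 9000 bp and 93.4% from 12000 bp. A wider region has more room for a second peak, whose part in these shares was not tested. Median cover in the same 5 broad classes was 70.5%, 75.5%, 74.97%, 80.5% and 80.2%.

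Many of these splits were narrow. ES49 peaks within the split regions were separated by 1319 gaps with a median of 239 bp, of which 607 (46.0%) were shorter than 200 bp and 923 (69.98%) shorter than 500 bp. Only 185 gaps were 1000 bp or longer, and 61 were 2000 bp or longer. When ES49 peaks less than 500 bp apart were joined, 319 regions (30.4%) still held 2 or more pieces, against 8.005% of shared peaks of 3000 to under 5000 bp and 3.66% of all shared peaks. Joining below 1000 bp left 168 split regions (16.03%), against 2.74% and 1.48%.

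The pieces were unequal in size. In split regions the largest ES49 peak held a median of 65.4% of the covered length and spanned a median of 44.6% of the ES48 peak. It held 75% or more of the covered length in 246 of 704 and less than 50% in 136. Pieces other than the highest-scoring one, 1301 in all, had a median width of 664 bp and a median score of 115, on a list whose scores begin at 50.

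In length, ES49 covered 5395 kb of the 7789 kb (69.3%), left 1732 kb bare at the ends (22.2%) and 663 kb bare in gaps between its peaks (8.51%). The ends thus made up 72.3% of the bare length, against 89.5% in shared peaks of 3000 to under 5000 bp, where gaps took 3.32% of the length. ES49 peaks stopped short of both ends in 765 regions (73.0%), reached 1 end alone in 224 and both ends in 59. Taken singly, 1754 of 2096 ends were bare, against 4495 of 5322 in shared peaks of 3000 to under 5000 bp. Stopping short was therefore not particular to the broad regions. Over all 2096 ends, with 0 for an end that ES49 reached, the bare length had a median of 478 bp. Over the 1754 ends left bare the median was 647.5 bp, and the longest was 9106 bp. Where an ES49 peak ran past an end, at 342 of 2096 ends, the median reach was 197 bp.

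The same picture appears along the regions. ES49 covered a mean of 26.1% of the outermost 250 bp, 42.5% of the next 250 bp, 62.8% between 750 and 1000 bp from the end and 80.5% between 2000 and 2250 bp. On a relative scale, cover was 31.1% in the first 5% of the width, 29.2% in the last 5% and 80.4% in the step just past the centre. Shared peaks of 3000 to under 5000 bp began at a like level, 25.9% of the outermost 250 bp, and stood at 76.1% between 750 and 1000 bp. The broad regions thus had a long middle of near-level cover.

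**Figure D2:**
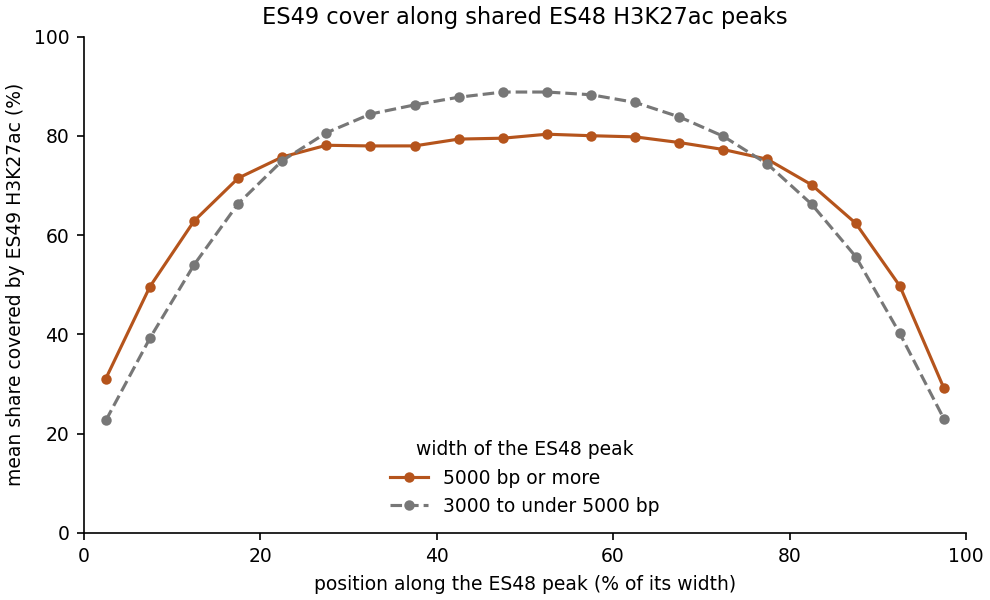
Mean share of each 5% step covered by ES49 H3K27ac (vertical axis, %) along ES48 H3K27ac peaks (horizontal axis, % of the width in genome orientation), for the 1048 regions of 5000 bp or more (solid line) and the 2661 shared peaks of 3000 to under 5000 bp (dashed line). The broad regions are flat near 80% over the middle, while the narrower peaks reach a higher point at the centre, and both fall to under 35% at the outermost steps.

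The 10 widest regions show the range of forms, and each was met by at least 3 ES49 peaks. The widest, chr5:119303580-119332310 (28731 bp), held 5 ES49 peaks that covered 82.3%. Of these, a peak of 7380 bp on the left and one of 14016 bp on the right both scored 3100, and 3 peaks of 609 to 1005 bp with scores of 62.9 to 190.5 lay between them. The region is therefore a pair of strong ES49 stretches joined in ES48 across a zone with weak ES49 peaks. At chr5:120117620-120141924 (24305 bp), a single ES49 peak of 19017 bp, the widest of its list, covered 78.2% of the ES48 peak, and 3 peaks of 430 to 569 bp followed on the right. At chr2:179947565-179973066 (25502 bp), 4 ES49 peaks covered 68.9%, and 2 of them, of 4419 and 11041 bp, nearly touched.

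A further pair of wide regions had different forms. In chr11:117809718-117832360 (22643 bp) a gap of 6258 bp parted an ES49 peak of 8969 bp from 4 smaller ones, and cover was 61.1%. In chr15:76018260-76039681 (21422 bp) 3 ES49 peaks covered 94.7%. The other five, chr6:52170322-52192043, chr7:29591450-29612045, chr16:22052907-22073096, chr9:44290430-44310204 and chr12:88222654-88242398, were met by 7, 7, 8, 7 and 4 ES49 peaks and covered over 82.8%, 89.8%, 86.5%, 86.9% and 87.2%. In these regions, high cover came in several pieces.

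**Figure D3:**
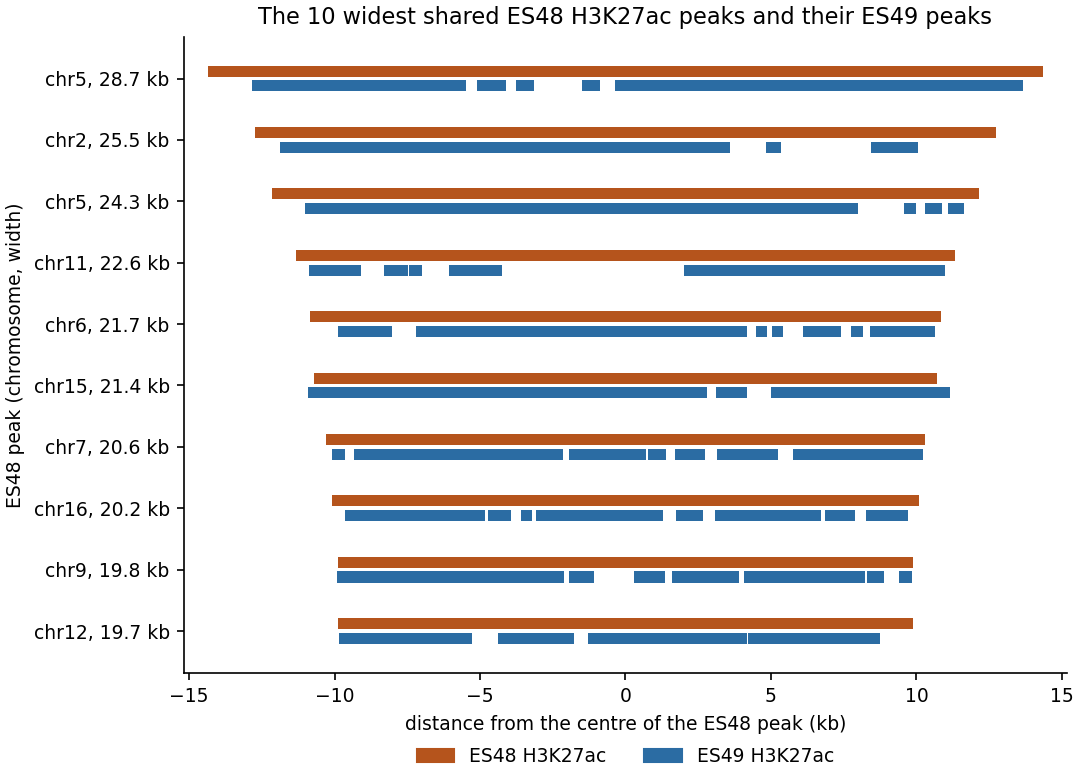
The 10 widest broad shared ES48 H3K27ac peaks (upper bar of each pair) and the ES49 H3K27ac peaks that meet them (lower bars), drawn to scale as distance from the centre of the ES48 peak in kb. Cover ranges from 61.1% in the chromosome 11 region, with its gap of 6258 bp, to 94.7% in the chromosome 15 region.

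The region with the most pieces was chr5:74672224-74690428 (18205 bp), where 10 ES49 peaks covered 69.2%. One of these was 6103 bp wide and scored 3100, while the other nine were 349 to 1294 bp wide with scores of 54.95 to 318.3. ES49 had 8 peaks each in chr16:22052907-22073096, chr4:129839829-129856271 (63.8% covered), chr15:88997625-89013484 (79.3%) and chr1:90998791-91009851 (85.2%). In the chromosome 4 region the largest piece, 3228 bp, scored 1408, and no piece reached 3100.

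At the other end, 63 regions (6.01%) were covered over 95% or more by a single ES49 peak. The widest 5 were chr3:87940873-87956294 (15422 bp, 99.9% covered), chr5:143573472-143587819 (14348 bp, 99.1%), chr11:98819902-98833483 (13582 bp, 98.4%), chr2:165704015-165715321 (11307 bp, 97.9%) and chr5:120279810-120291084 (11275 bp, 99.5%). These stretches were unbroken in both lines. The share of all shared ES48 peaks at the limit of 95% is not given here. Of all shared peaks, 83.0% were met by 1 ES49 peak and 10.3% were fully covered, against 32.8% and 2.48% of the broad regions. An ES49 peak that was itself 5000 bp or wider met 288 regions (27.5%), against 2.42% of all shared ES48 peaks.

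The least covered regions were broad in ES48 and marked by a single small, low-scoring peak in ES49. In chr3:153982686-153996711, 14026 bp wide with an ES48 score of 3100, the only ES49 peak was 511 bp wide and scored 89.2, so 3.64% was covered. In chr11:4159192-4167898 (8707 bp) it was 389 bp wide and scored 59.3, in chr2:173081843-173090775 (8933 bp) 432 bp and 63.2, in chr1:24587822-24598220 (10399 bp) 518 bp and 88.4, and in chr4:106455228-106463119 (7892 bp) 404 bp and 57.7. Cover in these 4 was 4.47%, 4.84%, 4.98% and 5.12%. In 30 of the 1048 regions every ES49 peak scored under 100. The 10th percentile of the best ES49 score was 348 over the broad regions and 79.8 over all shared ES48 peaks. A best score under 100 was thus less frequent here than among all shared peaks, though a split region takes the best of several peaks. The lower quartile of the best ES49 score was 1114 over the broad regions and 188 over all shared ES48 peaks.

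Few of the 1319 gaps between ES49 peaks were long. The longest, 7244 bp, lay in chr5:31902230-31914797 (12568 bp, 13.4% covered) between ES49 peaks of 1052 and 628 bp. After the chromosome 11 gap given above came gaps of 5447 bp in chr7:26564430-26575762 (24.4% covered), 5043 bp in chr18:35988590-36003886 (40.5%) and 4934 bp in chr6:87695968-87707367 (44.7%). In 4 of these 5 regions ES49 left more than 50% of the ES48 peak bare. In the chromosome 6 region 1 ES49 peak held 5083 of the 5093 bp covered. The other entered at the left end by only a few bp, so this gap is close to a bare end.

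The peaks of ES49 that met the broad regions were themselves larger than most of their list. There were 2364 of them, 7.97% of the 29652 ES49 peaks. Their median width was 1533 bp and their median score 474, against 836 bp and 165 over all ES49 peaks on the same chromosomes. Scores of 3100 or more were found in 22.0% of them, against 6.10%, and scores under 100 in 25.8%, against 38.5%. The best ES49 score of a region stood at a median percentile of 93.4 of its list. In a split region it is the highest of several peaks, so this is no like comparison with single peaks of the list. It reached 3100 in 500 regions (47.7%), against 11.1% of all shared ES48 peaks and 29.1% of those of 3000 to under 5000 bp.

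Exchanging the lines gave a different picture. Of the 339 ES49 peaks of 5000 bp or more on these chromosomes, ES48 met 337 and covered a median of 100%, with 287 of 337 covered over 90% or more and 8 under 50%. ES48 split 60 of them (17.8%), where ES49 split 67.2% of the broad ES48 regions. The 2 that ES48 did not meet were chr1:78183835-78195698 (11864 bp) and chr16:43500168-43509408 (9241 bp). Of the 339, 296 met a broad shared region. The ES48 list holds wider peaks throughout, as given above, and how much of this asymmetry goes with that was not tested.

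ES49 could also join what ES48 parted. An ES49 peak of 10153 bp, chr11:97671571-97681723, met both chr11:97658956-97672693 and chr11:97672730-97681732, and one of 7152 bp, chr15:85513157-85520308, met both chr15:85493793-85513162 and chr15:85513204-85520209. A small peak of 522 bp did the same for a pair on chromosome 18. The ES48 breaks within these pairs were short, and the chromosome 15 peak entered the first region of its pair by only a few bp. The first 2 gave the farthest reaches past an end, 9030 and 7146 bp. These ran almost wholly over the second ES48 region of the pair, covered over 99.9% and 100%, and not over chromatin without ES48 acetylation. The next reaches were 4451 bp at chr19:44822038-44832631, 3459 bp at chr4:116795667-116802178 and 2901 bp at chr3:86895280-86900558. ES49 covered the last of these regions fully and overran it at both ends.

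Broad regions lay near other acetylated chromatin. Within 5000 bp of a region, an ES48 H3K27ac peak was found on 1113 of 2096 sides (53.1%) and an ES49 peak on 986 (47.0%), against 33.8% and 38.1% for shared peaks of 3000 to under 5000 bp. The ES49 shares include peaks that run over the end from within, at 342 of 2096 ends and 825 of 5322. The ES48 shares hold other peaks alone, so the shares of the lines are unlike measures. Another broad shared region lay less than 10000 bp away in 234 cases (22.3%). Joined at that distance, the regions formed 917 groups, of which 103 held 2 or more and 21 held 3 or more. The 2 groups of 5 regions were treated differently by ES49: chr11:98601056-98659632 was covered over 86.3% of its regions' length and chr13:115840604-115893514 over 38.6%. Among groups of 3, cover ranged between 97.5% (chr15:85482527-85520209) and 30.4% (chr17:31962302-31994706).

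Chromosomes 11 and 5 held the most regions, 118 and 106, and chromosome 14 the fewest, 21. As a share of a chromosome's ES48 peaks, they were most frequent on chromosome 15 (6.16%) and chromosome 11 (5.40%) and least on chromosome 14 (2.60%). Median cover by ES49 was 86.0% on chromosome 11, 84.3% on chromosome 15 and 53.6% on chromosome 14. The split share ranged between 84.6% on chromosome 16 and 52.0% on chromosome 12, on 26 and 25 regions.

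EWS-FLI1 binding was not used to choose the regions. An ES48 EWS-FLI1 peak lay in 16 of 1048 (1.53%, interval 0.875 to 2.47), against 0.273% of all shared ES48 peaks and 0.338% of those of 3000 to under 5000 bp. An ES49 EWS-FLI1 peak lay in 22 (2.10%, interval 1.32 to 3.16), against 0.421% and 0.676%. Wide regions have more room for a peak. Per length, the regions held 2.44 ES48 and 3.59 ES49 EWS-FLI1 peaks per Mb, against 0.909 and 1.92 per Mb in peaks of 3000 to under 5000 bp and 1.36 and 2.10 per Mb in all shared peaks. Density did not follow width: shared peaks under 1000 bp held 7.95 and 9.82 per Mb, and the 76 regions of 12000 bp or more held 0.844 (1 peak) and 0. Of the regions, 33 had EWS-FLI1 of either line and 5 of both, so 1015 had neither.

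The EWS-FLI1 peaks in these regions were low-scoring ones. Their median score was 59.0 in ES48 (19 peaks) and 69.3 in ES49 (28 peaks), against 65.4 and 107.1 over the whole lists. The best EWS-FLI1 score was under 60 in 7 of the 16 ES48 regions and in 4 of the 22 ES49 regions. Median ES49 H3K27ac cover was 61.5% in the 33 regions with EWS-FLI1 of either line and 74.9% in the 1015 without. ES49 EWS-FLI1 peaks met ES49 acetylation in 26 of 28 cases, and ES48 ones in 14 of 19. ES49 acetylation covered 62.7% and 59.9% of the length of those regions, but overlap by 1 bp and covered length are unlike measures. Mean ES49 cover over all regions also rose away from the ends. EWS-FLI1 centres lay at a median of 41.1% (ES49) and 30.6% (ES48) of the width from the nearer end. No preference for acetylated stretches is read from these values.

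The highest EWS-FLI1 score over both lists fell in chr5:142494921-142504651 (9731 bp). There, ES48 EWS-FLI1 peaks of 183 and 411 bp scored 54.7 and 150.03, and an ES49 peak of 938 bp that spans both scored 261.3. The ES49 H3K27ac peak around them was 5055 bp wide and scored 3100, so ES49 acetylation held the bound sites while covering 51.9% of the ES48 peak. Regions were ranked by the higher EWS-FLI1 score of the lines, whose score scales are not known to match, and no difference in score between the lines is read from this. EWS-FLI1 of both lines was also found in chr1:76194734-76201905 (46.4% covered by ES49 H3K27ac), chr15:61856727-61862766 (44.2%), chr2:60565831-60571566 (68.9%) and chr4:76595742-76601048 (25.8%). These 5, singled out after their values were seen, are the regions where both lines had a peak, and in each the peaks of the lines overlapped. Each was covered by less than the median of all regions.

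Among the 10 regions with the highest EWS-FLI1 scores, 5 had EWS-FLI1 of ES49 alone, of 17 such regions in all: chr3:80007941-80018907 (score 192.6, 54.3% covered), chr5:101377650-101383260 (165.6, 96.2%), chr3:92782049-92788166 (113.5, 67.0%), chr5:120981666-120991330 (106.2, 99.7%) and chr12:78993876-78999482 (93.1, 63.8%). The only one of the 10 with EWS-FLI1 of ES48 alone, of 11 such regions in all, was chr5:126965068-126971464 (98.3), where ES49 acetylation covered 42.8% but included the binding site.

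**Figure D4:**
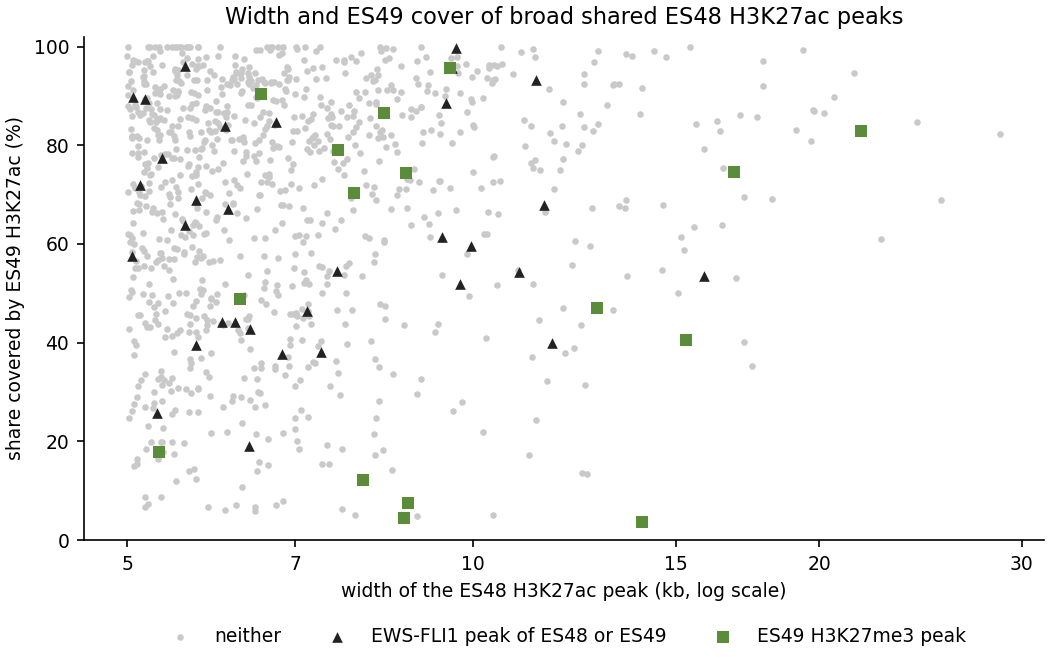
Each of the 1048 broad shared ES48 H3K27ac peaks by its width (horizontal axis, kb, log scale) and the share covered by ES49 H3K27ac (vertical axis, %). Triangles mark the regions with an EWS-FLI1 peak of either line, squares those with an ES49 H3K27me3 peak (a region with both is drawn as a square), and small points those with neither. Of the 16 squares, 4 lie under 15% cover.

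H3K27me3 of ES49, also not used in the choice, was rare in the broad regions, and its share was highest where ES49 acetylation was least. It was found in 16 of 1048 (1.53%), against 0.884% of all shared ES48 peaks and 1.16% of those of 3000 to under 5000 bp. Per length, the regions held 4.88 H3K27me3 peaks per Mb, against 4.44 and, over all shared peaks, 5.33 per Mb. Among the 42 broad ES48 peaks that ES49 acetylation did not meet, 9 had H3K27me3 (21.4%, interval 10.3 to 36.8). The share was 3 of 18 (16.7%, interval 3.58 to 41.4) in regions covered under 10%, 2 of 51 (3.92%) at 10 to 25%, 3 of 188 (1.60%) at 25 to 50%, 6 of 558 (1.08%) at 50 to 90% and 2 of 233 (0.858%) at 90% or more. Each share rests on at most 9 regions with H3K27me3, and the first 2 have wide intervals. No trend is read from the order of the lower shares. Like shares by cover among narrower ES48 peaks are not given here.

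The 16 regions, described after their values were seen, showed different forms. In 3 of the 5 that ES49 acetylation covered least, the ES49 marks did not overlap. At chr6:145810580-145815910 (5331 bp), H3K27me3 took 66.2% of the ES48 peak and ES49 H3K27ac 17.8%, and an ES49 H3K27ac peak of 398 bp lay wholly within H3K27me3. At chr11:4159192-4167898, with its ES49 acetylation of 389 bp, H3K27me3 took 3360 bp and none of it overlapped. None overlapped at chr4:3858764-3867537 (2028 bp methylated, 7.56% acetylated) or at chr3:153982686-153996711 (1292 bp, 3.64%) either. At chr12:114164024-114172033, 50% of the 930 bp with H3K27me3 were also acetylated.

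In other regions the ES49 marks overlapped over most of the methylated length. The widest such region was chr6:52170322-52192043, where 17355 of 21722 bp carried H3K27me3 and 90.9% of that was also in ES49 H3K27ac peaks. At chr11:120089789-120106637 (16849 bp) it was 88.6% of 9726 bp, and at chr11:120043867-120052596 (8730 bp) 96.7% of 4712 bp. Over the 16 regions, 37.6 of 54.1 kb with H3K27me3 (69.4%) were also acetylated, but this rests on those 3 regions and is 38.6% without them. At least 50% of the H3K27me3 length was acetylated in 9 of 16 regions. Among the better covered ones, none of it was acetylated at chr6:127098447-127104714 (1643 bp) or chr11:118941844-118950198 (497 bp), and 40.7% of 354 bp at chr9:107600081-107612883. Peaks of both marks at a position can come from different alleles or cells, and the lists cannot tell these apart.

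**Figure D5:**
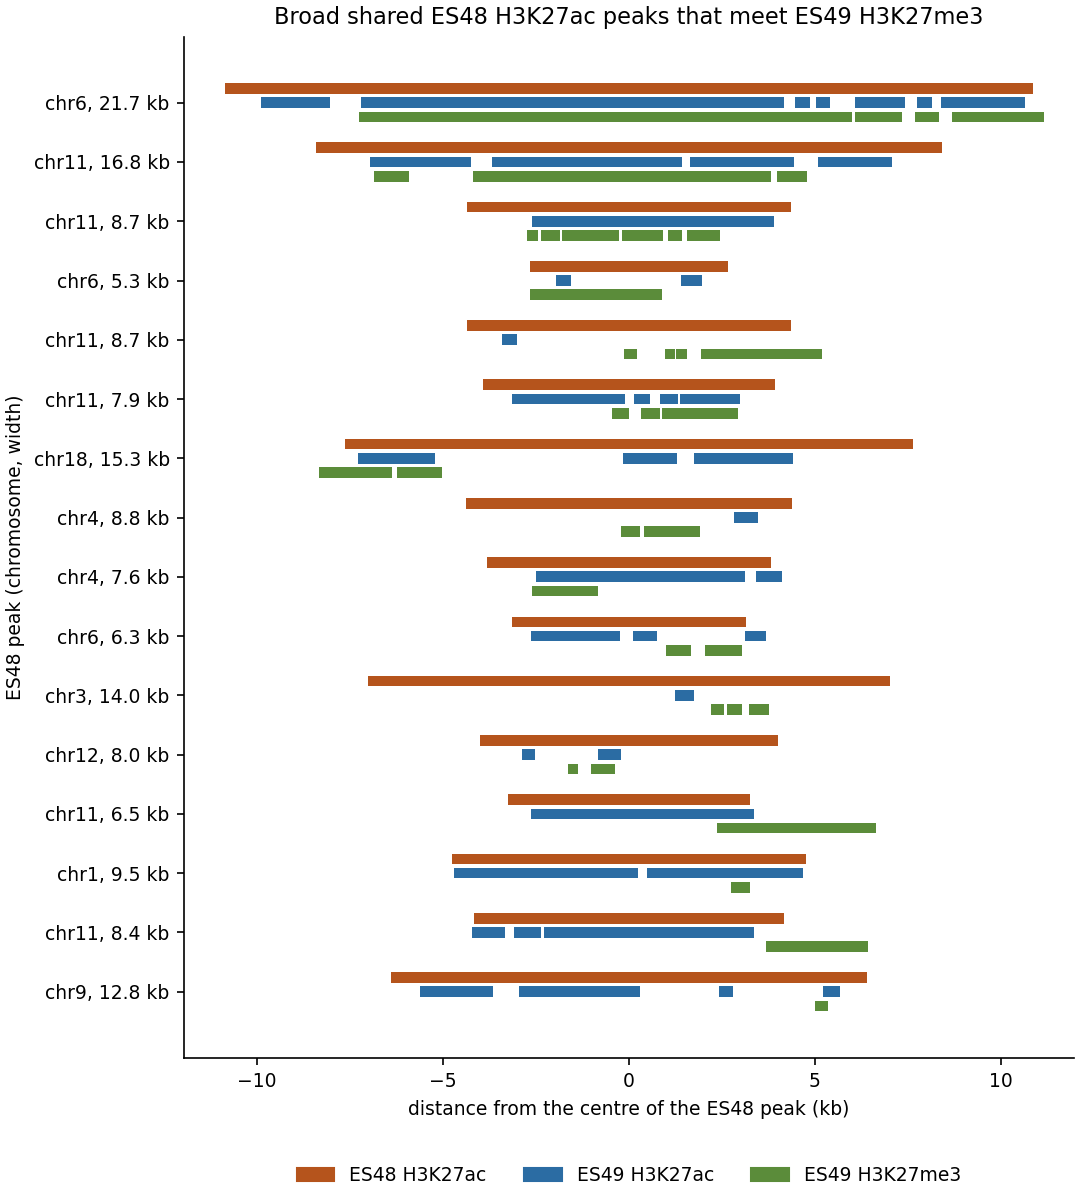
The 16 broad shared ES48 H3K27ac peaks that meet ES49 H3K27me3 (top bar of each set), with the ES49 H3K27ac peaks (middle) and ES49 H3K27me3 peaks (bottom), to scale as distance from the centre of the ES48 peak in kb and ordered by the length with H3K27me3. The top 3 regions have both ES49 marks over the same stretch, while the 14.0 kb region on chromosome 3 and the 8.8 kb region on chromosome 4 have them side by side.

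The 42 broad ES48 peaks that ES49 did not meet had a median width of 5740 bp and an ES48 score of 3100 or more in 35. The widest, chr1:33993506-34005107, was 11602 bp. At chr1:74836118-74842080, ES49 H3K27me3 took 5890 of 5963 bp, and at chr1:74850392-74855886, close by, 4179 of 5495 bp. An ES48 EWS-FLI1 peak was found in 1 of the 42 and an ES49 one in 0 of 42, for which the Clopper-Pearson interval reaches 8.41%.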

How the data were processed

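Chromatin was sonicated, precipitated with an antibody and sequenced, per the labels' protocols. The mm9 build, Bowtie 1.1.1 and SAMtools 1.2 are named by the submitters' processing notes. A MACS program is named in the peaks' own labels. Its settings and control were not given. The deposited lists hold the position and name of every peak and the authors' score for it, on an unstated scale. Scores were compared only within a list, except that the 10 EWS-FLI1 regions named were ranked by scores of both lines together. Depth is unknown.

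From these lists, overlaps of at least 1 bp, covered lengths, gaps and bare ends were computed with Python 3.11.15, numpy 2.4.6 and scipy 1.17.1, after checks on simulated intervals. Shares carry exact 95% Clopper-Pearson intervals. No test was run, since each group is 1 library. Members and lists were chosen with earlier results of these data known. Regions were named by fixed ranks: the 10 widest, the 5 extremes in number of ES49 peaks, cover, single-peak cover, gap and reach, and the 10 highest EWS-FLI1 scores. Alternatives changed the width minimum, overlap, score cut, chromosomes, joining and widening of ES49 peaks.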

Additional observations from a re-analysis of the deposited data

How the results depend on the processing

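The number of regions was 1836 at a width minimum of 4000 bp and 639 at 6000 bp. At 4000 bp, 795 regions (43.3%) were met by 1 ES49 peak and 371 (20.2%) were covered over 90% or more. Another 427 (23.3%) were covered under 50%, and 30 (1.63%) had H3K27me3. At 5000 bp these shares were 32.8%, 22.2%, 24.5% and 1.53%. At 6000 bp the numbers were 174 (27.2%) with 1 ES49 peak and 465 (72.8%) with 2 or more. Cover was 90% or more in 152 (23.8%) and under 50% in 146 (22.8%). ES49 EWS-FLI1 was found in 14 (2.19%), against 2.10% at 5000 bp, and 97.6% of broad ES48 peaks were shared.

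With the upper 50% of the ES49 list by score, 91.6% of broad ES48 peaks were shared, median cover was 70.4%, the median number of ES49 peaks was 1, and 602 regions were met by 1 and 396 by 2 or more, so the split share was 39.7%. Joining ES49 peaks less than 500 bp apart gave a median of 1, 729 regions with 1 and 319 with 2 or more. Joining below 1000 bp gave a median of 1, 880 and 168. Dropping or joining ES49 peaks can only keep or lower their number in a region, so a fall was fixed in advance. Only its size is a result: the split share was 39.7%, 30.4% and 16.03% in turn, against 67.2% as deposited.

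Requiring cover of at least 50% left 72.6% shared, a median cover of 82.6% and, by construction, 0 regions under 50%. Of the 791 regions left, 9 (1.14%) had ES48 EWS-FLI1 and 8 (1.01%) had H3K27me3. Widening ES49 peaks by 250 bp gave a median cover of 86.3%, 445 regions at 90% or more and 146 under 50%. Adding chromosome X moved none of the 12 results by more than their limits. Keeping the upper 50% of the ES48 list removed no region, since all score above that cut, so it could change nothing. Peaks within 1 kb gave 16 regions with ES48 EWS-FLI1, 22 with ES49 EWS-FLI1 and 21 with H3K27me3. Chosen after the data were seen, leaving out the 1, 2 or 3 regions with the most H3K27me3 gave 59.3%, 48.7% and 38.6% of its length in ES49 H3K27ac.

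No paired analysis was possible because each line and antibody has 1 library. Peak lists without read counts cannot tell a gap in acetylation from a stretch just under the caller's threshold.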
